A study of Mus musculus with 8 samples.

Results

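The genes described here are those with which a cell repairs DNA cut through both strands. A list of 36 mouse genes was drawn up for end joining, for homologous recombination and for the steps that sense and mark a break, and each gene was represented by the probe set that the array annotation pairs with its symbol alone. Of the 36, 32 had such a probe set, 1 each, out of 19505 genes measured in all. H2afx was found under its newer symbol H2ax. Dclre1c, Rbbp8, Xrcc2 and Parp1 had no matching probe set and are not analysed here. The list was not chosen by the level of any gene, though it was chosen with earlier results of these data known.

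Expression was measured on Affymetrix arrays in hematopoietic stem cells sorted from the bone marrow of mice aged 6 to 10 weeks, as lineage-negative cells carrying Sca-1, c-Kit and CD150 but not CD48. Both groups were cultured with recombinant mouse stem cell factor at 100 ng/ml and with the antibiotic mixture Primocin, and were collected after 16 h. The vehicle group received sterile water and the eltrombopag group received eltrombopag at 10 µg/ml. Each group holds 4 arrays, numbered 1 to 4. No irradiation or other DNA-damaging agent is named for either group, and the labels name no mouse strain. Eltrombopag is an oral agonist of the thrombopoietin receptor that also binds iron. It is known to act on the human receptor and not on the mouse receptor, so mouse cells are a setting for effects that bypass that receptor. The arrays are labelled as biological replicates, without a statement of whether each came from its own mice. The p-values cover the spread between these arrays, which may in part be technical.

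A break in both strands is found by the MRE11-RAD50-NBS1 complex and by the Ku ring. The kinase ATM then marks the chromatin around it through histone H2AX, MDC1 and the ubiquitin ligases RNF8 and RNF168, which brings in 53BP1 and RIF1. Ku, the kinase DNA-PKcs and ligase IV can join the ends at any stage of the cell cycle, with small losses of sequence. If the ends are cut back to single strands instead, BRCA1, PALB2 and BRCA2 help prepare them for repair by homologous recombination, which copies the sister chromatid, so this route belongs to cells in S and G2 phase. Quiescent blood stem cells of the mouse are known to rely on end joining. Whether the cells here were quiescent after 16 h in culture was not tested.

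The 8 arrays were closely alike, with Pearson correlations across genes from 0.987 to 0.993. Values are log2 expression values of the deposited table. The lower quartile of the probe sets averaged 4.96, the median 6.68 and the upper quartile 8.63 over the arrays. All 9 measured markers of the sorted cells lay above the median (gene means from 6.85 to 12.89), and Kit stood at 12.89 ± 0.049 (SD, n = 4) in vehicle arrays and 12.88 ± 0.050 (SD, n = 4) in eltrombopag arrays. Cd48, which the gate excludes, averaged 6.08. The means of 42 markers of other cells (11 myeloid, 11 lymphoid, 4 erythroid, 5 megakaryocyte, 5 mast cell or basophil, 6 stromal or endothelial) ran from 3.58 to 9.40, and 14 of these 42 lay above the median. Averaged over each list, the 2 groups overlapped for every list of cell type markers. The Y-linked Uty was high in array 3 of both groups (7.71 and 6.98) and lay between 3.02 and 3.31 in the other 6 arrays, so results are also given without both arrays numbered 3.

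No gene of double-strand break repair passed the test between eltrombopag and vehicle. In limma, 0 of the 32 genes had an adjusted p under 0.05, and each had an adjusted p of 0.9998. The percentage called among all 19505 genes was 0. At an unadjusted p under 0.05 there were 3 members, which is 9.38% of them, against 3.33% of all genes. Rad51c and Rad51d were on the higher side, where 1.74% of all genes lay, and Rad51ap1 on the lower side, where 1.59% lay. These 3 were also the members whose 4 eltrombopag arrays lay wholly above or below the 4 vehicle arrays, against 2.12% of all genes (1.12% above and 1% below). The same direction in all 4 pairs of equal number follows from this for these 3, and no other member had it. That is 9.38% of the members, against 12.6% of all genes. All 3 belong to homologous recombination, the largest role with 11 measured members, and 2 of them were higher and 1 lower. With the number as a replicate block, 4 members had an unadjusted p under 0.05, with Xrcc4 as the further one, against 4.63% of all genes. Of the 32 members, 17 had a higher and 15 a lower mean with eltrombopag, with a median log2 difference of 0.022, where 52.3% of all genes were higher with a median of 0.0071. The members' median was -0.027 without vehicle array 1 and -0.018 without eltrombopag array 3, so no direction is read from it. In bulk RNA, fewer cells that carry a transcript and less of it per cell cannot be told apart.

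**Figure D1:**
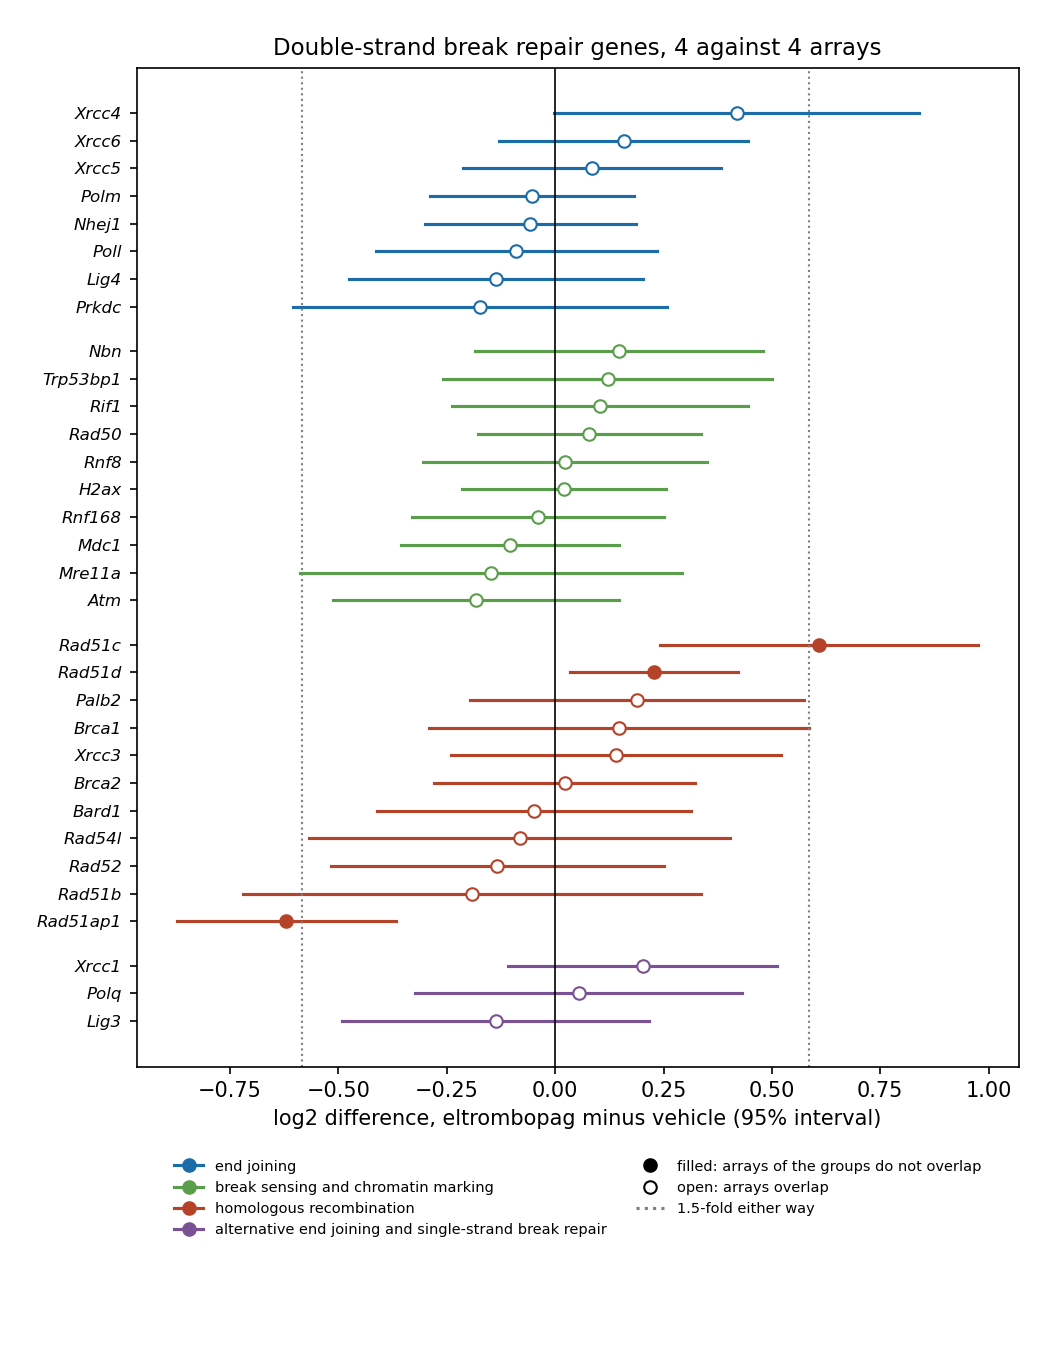
Log2 difference between eltrombopag and vehicle (x axis) for each of the 32 measured genes, grouped by role, with 95% intervals from limma. The intervals of Rad51c, Rad51d and Rad51ap1 do not reach 0, and no gene passed after adjustment over all genes.

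The data bound how far these transcripts could have moved on the arrays. For all 32 genes the 95% interval lay within a 2-fold change either way, as it did for 98.7% of all genes. For 26 of them it lay within a 1.5-fold change, against 88% of all genes. The 6 with wider or displaced intervals were Prkdc, Xrcc4, Mre11a, Rad51b, Rad51c and Rad51ap1. The intervals are not adjusted over genes. The standard error of a difference ran from 0.088 for Rad51d to 0.24 for Rad51b, with a median of 0.15, and the median over all genes was 0.13. Without both arrays numbered 3, limma again called 0 members. Rad51ap1, Rad51c and Xrcc4 then had an unadjusted p under 0.05 (0.00103, 0.0314 and 0.0220), and Rad51d did not. The share of all genes at that p was not counted in this fit, so these members are not set against a background.

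**Figure D2:**
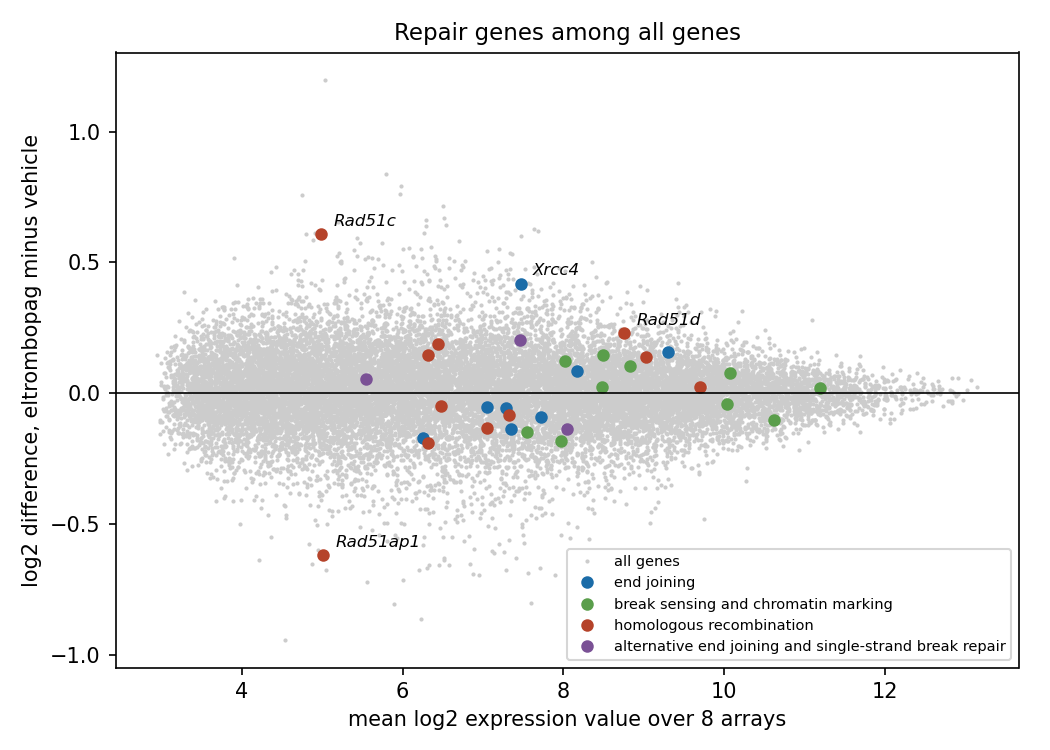
Log2 difference (y axis) against mean log2 value over 8 arrays (x axis) for all 19505 genes in grey and the 32 repair genes in colour by role. Rad51c and Rad51ap1 lie at the edge of the cloud in opposite directions, near a mean of 5, and most members lie inside it.

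Genes that sense and mark the break showed the narrowest range of differences, from -0.18 to 0.15 over 10 genes, with 6 higher and 4 lower. Atm, the kinase that starts the signal, had log2 values of 7.98, 7.72, 8.48 and 8.05 in vehicle arrays 1 to 4 and 7.88, 7.79, 7.82 and 8.02 in the eltrombopag arrays. The high value was vehicle array 3, and the groups overlapped. The log2 difference of Atm was -0.18 (SE 0.15, unadjusted p 0.247 in limma), and -0.042 without vehicle array 3. Nbn, which encodes the NBS1 subunit that docks ATM, had 8.08, 8.68, 8.65 and 8.26 with vehicle and 8.78, 8.51, 8.56 and 8.41 with eltrombopag. Its vehicle arrays spread more widely than its eltrombopag arrays and enclosed all but eltrombopag array 1. Its log2 difference was 0.15 (SE 0.15, unadjusted p 0.350 in limma), and 0.034 without vehicle array 1.

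The other subunits of the MRN complex lay on either side of 0, at -0.15 (SE 0.20) for the nuclease gene Mre11a and 0.079 (SE 0.12) for Rad50, which bridges the ends. The chromatin marking genes had differences of 0.021 for H2ax, the histone variant that is phosphorylated at a break, -0.10 for Mdc1, the scaffold that reads it, 0.023 for Rnf8 and -0.040 for Rnf168. The factors that shield the ends from being cut back were at 0.12 for Trp53bp1, which encodes 53BP1, and 0.10 for Rif1, its partner. None of these 10 genes had an unadjusted p under 0.05. H2ax, Mdc1, Rad50, Rnf168 and Rif1 had mean values above the arrays' mean upper quartile.

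End joining genes differed by -0.17 to 0.42, with 3 of 8 higher and 5 lower and a median of -0.055. Ku, which threads onto the broken ends, is a pair of proteins encoded by Xrcc6 and Xrcc5. Xrcc6 had 9.25, 9.23, 9.06 and 9.38 with vehicle and 9.48, 9.55, 9.04 and 9.48 with eltrombopag. Eltrombopag arrays 1, 2 and 4 lay above all vehicle arrays and array 3 lay below them. The log2 difference was 0.16 (SE 0.13, unadjusted p 0.250 in limma), and 3 of 4 pairs of equal number were higher. Xrcc5 had 7.99, 8.09, 8.21 and 8.24 with vehicle and 7.98, 8.03, 8.55 and 8.30 with eltrombopag. In both groups arrays 3 and 4 were above arrays 1 and 2, and the difference between the groups was 0.085 (SE 0.13).

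Prkdc, which encodes the catalytic subunit of DNA-dependent protein kinase, had 5.91, 6.49, 6.66 and 6.30 with vehicle and 5.72, 6.31, 6.11 and 6.53 with eltrombopag. Array 1 was the lowest in each group, and the difference was -0.17 (SE 0.19, unadjusted p 0.394 in limma). Lig4, the ligase that seals the ends, had 7.24, 7.19, 7.66 and 7.60 with vehicle and 6.93, 7.49, 7.38 and 7.35 with eltrombopag. The groups overlapped and 1 of 4 pairs was higher, with a difference of -0.14 (SE 0.15).

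Xrcc4, the scaffold that holds and stabilises ligase IV, had the largest difference among the end joining genes. It had 7.46, 6.64, 7.62 and 7.33 with vehicle and 7.64, 7.66, 7.53 and 7.88 with eltrombopag. Vehicle array 2 was the lowest of the 8 arrays. The log2 difference was 0.42 (SE 0.19, 95% interval -0.0022 to 0.84, unadjusted p 0.0510 in limma), and 3 of 4 pairs were higher. Without vehicle array 2 the difference was 0.21 (unadjusted p 0.116 in limma), so 1 array set its size. The remaining end joining genes were at -0.057 for Nhej1, which encodes the ligase cofactor XLF, -0.090 for Poll and -0.054 for Polm. Poll and Polm encode polymerases that fill small gaps at the ends. Poll had 1 far value, in eltrombopag array 2. Without that array the difference was -0.25 (unadjusted p 0.0262 in limma, against 0.552 over all 8 arrays). This fit was picked out because of Poll's own far value, so no change is read from it.

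Homologous recombination genes had the widest range, from -0.62 to 0.61, with 6 of 11 higher and 5 lower and a median of 0.022. The lowest was Rad51ap1, whose product helps the resected strand invade its partner. Rad51ap1 had 5.26, 5.25, 5.22 and 5.53 with vehicle and 4.56, 4.56, 4.80 and 4.85 with eltrombopag. All 4 eltrombopag arrays lay below all 4 vehicle arrays, with 0.36 between the nearest values. The group values were 5.31 ± 0.15 (SD, n = 4) and 4.69 ± 0.16 (SD, n = 4), a log2 difference of -0.62 (SE 0.11, 95% interval -0.87 to -0.37) or 0.651 times the vehicle level. Its unadjusted p was 0.000249 in limma, rank 2 among the 19505 genes, and its adjusted p was 0.9998. In pairs of equal number the differences were -0.70, -0.69, -0.42 and -0.68. Without both arrays numbered 3 it was -0.69. Both groups lay near the arrays' mean lower quartile of 4.96, where probe sets are dim.

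**Figure D3:**
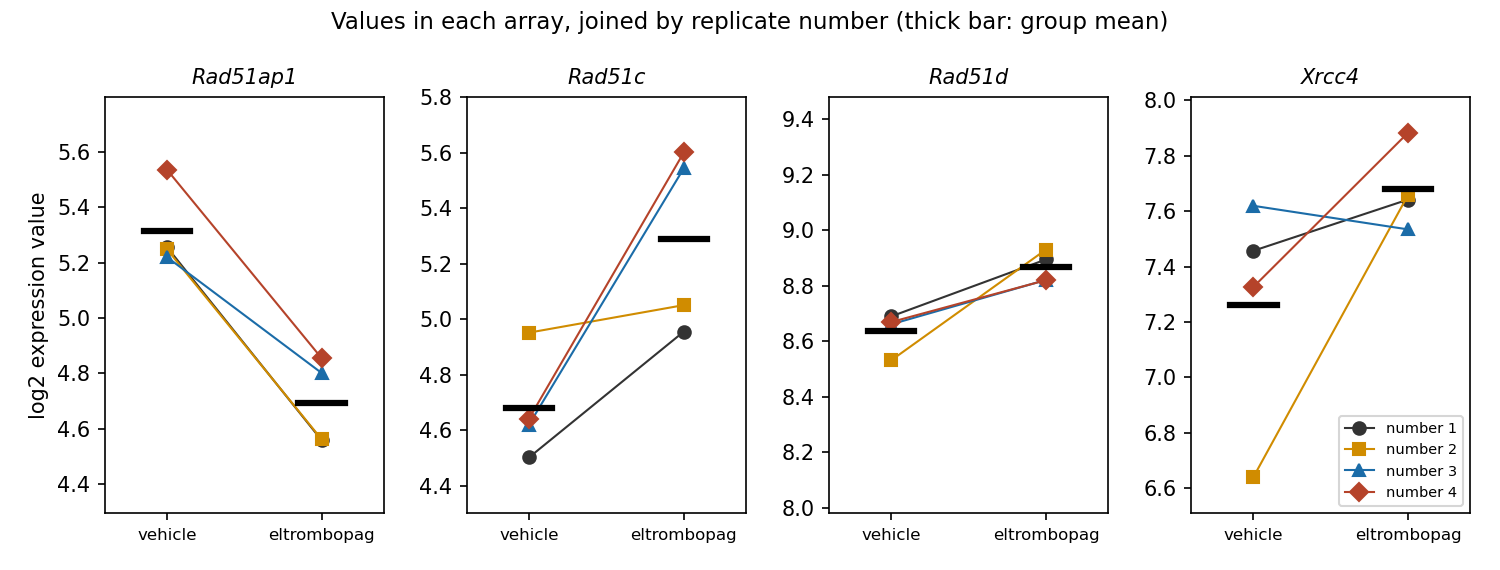
Log2 values (y axis) of Rad51ap1, Rad51c, Rad51d and Xrcc4 in each array, with lines joining the vehicle and eltrombopag arrays of the same number and thick bars at the group means. All 4 lines slope down for Rad51ap1 and up for Rad51c and Rad51d, and 1 of 4 slopes down for Xrcc4.

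The highest was Rad51c, whose product acts in 2 complexes of homologous recombination. Rad51c had 4.50, 4.95, 4.62 and 4.64 with vehicle and 4.95, 5.05, 5.54 and 5.60 with eltrombopag. The groups did not overlap, but only 0.0038 separated vehicle array 2 from eltrombopag array 1. The group values were 4.68 ± 0.19 (SD, n = 4) and 5.29 ± 0.33 (SD, n = 4), a log2 difference of 0.61 (SE 0.17, 95% interval 0.24 to 0.98) or 1.53 times the vehicle level. The unadjusted p was 0.00400 and the adjusted p 0.9998 in limma. The pair differences were 0.45, 0.099, 0.92 and 0.96, so numbers 3 and 4 carried most of it. Without both arrays numbered 3 the difference was 0.50 (unadjusted p 0.0314 in limma). This gene was dim too.

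Rad51d, whose product shares 1 of these complexes, was bright and even between arrays. It had 8.69, 8.53, 8.66 and 8.67 with vehicle and 8.89, 8.93, 8.82 and 8.82 with eltrombopag, so that all eltrombopag arrays lay above all vehicle arrays, by at least 0.13. The log2 difference was 0.23 (SE 0.088, 95% interval 0.035 to 0.42) or 1.17 times the vehicle level, with an unadjusted p of 0.0249 and an adjusted p of 0.9998 in limma. Its pair differences were 0.21, 0.40, 0.16 and 0.15. Without vehicle array 2 the unadjusted p was 0.0701, and without both arrays numbered 3 it was 0.0557.

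Rad51b, Rad51c and Rad51d act together in 1 complex and Rad51c pairs with Xrcc3 in another. Across these 4 measured genes the log2 differences were -0.19 (SE 0.24) for Rad51b, 0.61 for Rad51c, 0.23 for Rad51d and 0.14 (SE 0.17) for Xrcc3, so 3 of 4 were higher. Rad51b had the widest spread of all members in the fit, with 6.10, 6.76, 6.61 and 6.21 with vehicle and 5.90, 5.70, 6.55 and 6.75 with eltrombopag. Its pairs ran from -1.06 for number 2 to 0.54 for number 4.

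The other genes of homologous recombination had differences from -0.13 to 0.19, and none had an unadjusted p under 0.05 in limma. The median absolute difference over all genes was 0.083. Brca1 was at 0.15 (SE 0.20) and Bard1, its partner in a ubiquitin ligase, at -0.049 (SE 0.16). Brca2, a mediator of strand exchange, was at 0.022 (SE 0.14), and Palb2, which links it to BRCA1, at 0.19 (SE 0.17), or 0.066 without vehicle array 1. Rad52, which anneals single strands, was at -0.13 (SE 0.17), and Rad54l, the motor that remodels DNA during strand exchange, at -0.082 (SE 0.22). In Rad54l the pair differences were 0.63, -0.57, -0.87 and 0.48, so the arrays moved widely in both directions.

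The promoter windows of the members at either extreme are shown here because these genes had the largest differences. The sequences come from RefSeq on the GRCm38.p6 assembly and hold the 250 bases before an annotated transcription start, on the minus strand in each case. The Rad51ap1 window is chr6:126939588-126939837. Rad51c has 2 annotated starts, with windows at chr11:87404507-87404756 and chr11:87404955-87405204. Rad51d is not in the sequence table. Capitals mark CCAAT boxes (CCAAT) and hypoxia response cores (ACGTG or GCGTG), on either strand, with overlapping matches merged.
Rad51ap1: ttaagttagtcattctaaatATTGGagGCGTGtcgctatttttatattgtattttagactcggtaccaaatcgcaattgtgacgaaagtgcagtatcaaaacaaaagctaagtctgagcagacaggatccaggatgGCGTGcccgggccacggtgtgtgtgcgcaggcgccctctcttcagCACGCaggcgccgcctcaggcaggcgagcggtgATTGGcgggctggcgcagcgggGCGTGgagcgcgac
Rad51c, first window: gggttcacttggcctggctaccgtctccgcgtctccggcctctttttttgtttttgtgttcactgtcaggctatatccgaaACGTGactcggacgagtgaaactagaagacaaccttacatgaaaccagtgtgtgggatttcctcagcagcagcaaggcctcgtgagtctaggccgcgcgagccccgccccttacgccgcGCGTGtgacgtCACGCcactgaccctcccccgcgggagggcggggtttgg
Rad51c, second window: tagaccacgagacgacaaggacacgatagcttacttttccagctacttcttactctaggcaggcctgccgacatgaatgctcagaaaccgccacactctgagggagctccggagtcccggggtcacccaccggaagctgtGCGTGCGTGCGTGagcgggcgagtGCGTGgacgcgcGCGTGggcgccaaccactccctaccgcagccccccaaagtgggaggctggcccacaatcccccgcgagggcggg
The Rad51ap1 window held 2 CCAAT boxes and 4 hypoxia response cores. The Rad51c windows held 0 CCAAT boxes, and 3 and 5 hypoxia response cores. None of the 3 windows held the E2F letters searched, which were TTTGGCGC, TTTGCCGC, TTTCGCGC and TTTCCCGC.

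Of the 32 members, 25 had at least 1 window in the table, 29 windows in all. The E2F letters, read by the factors that switch on S phase genes, stood in 4 of these 29 windows (13.8%), against 1.86% of all 32851 windows. CCAAT boxes stood in 48.3% of member windows and 33.8% of all, and hypoxia response cores in 58.6% and 38.6%. A cell cycle homology region (TTTGAA) stood in 10.3% and 16% and a cAMP response core (TGACG) in 37.9% and 17.8%. Member windows had a median GC content of 58.4% against 52.4% over all windows, and windows of every gene type are in that background, so the shares are a description only. The 4 E2F matches are shown with up to 10 bases on each side, because these members share it, and capitals mark the match. The letters were searched on either strand. All bases are printed on the gene's strand, and in Brca2 and Xrcc6 the match lies on the other one.
Bard1: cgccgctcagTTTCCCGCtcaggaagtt
Brca2: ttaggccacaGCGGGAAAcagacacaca
Mdc1: cttcagcctgTTTCCCGCcggtagcc
Xrcc6: gggggtggaaGCGGGAAAtgcgagtggg
They lie at chr1:71103164-71103191 for Bard1, chr5:150522443-150522470 for Brca2, chr17:35841472-35841497 for Mdc1 and chr15:82016313-82016340 for Xrcc6. The log2 differences of these 4 genes were -0.049, 0.022, -0.10 and 0.16 in that order, and none had an unadjusted p under 0.05. A match is not a site shown to be bound.

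The alternative routes of repair had 3 measured members, with differences from -0.14 to 0.20. Xrcc1, the scaffold of single-strand break repair, had 7.28, 7.49, 7.57 and 7.10 with vehicle and 7.88, 7.50, 7.46 and 7.40 with eltrombopag. Eltrombopag array 1 was the highest of the 8, and the groups overlapped, with a difference of 0.20 (SE 0.14, unadjusted p 0.178 in limma). Lig3, the ligase that XRCC1 carries, had 7.94, 8.37, 8.04 and 8.10 with vehicle and 8.30, 8.01, 8.03 and 7.55 with eltrombopag. Its lowest value was eltrombopag array 4, and its difference was -0.14 (SE 0.16). Polq, the polymerase that joins ends at short matching stretches, was at 0.054 (SE 0.17), with values from 5.11 to 5.87 over the 8 arrays.

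A further 61 measured genes of break repair, from a list of 66 with the Fanconi anemia genes, the RPA subunits, helicases, nucleases and checkpoint kinases, was read in the same fit. In limma 0 of 61 passed, 32 were higher and 29 lower, and the median log2 difference was 0.010. Brip1 was the 1 gene with an unadjusted p under 0.05, which is 1.64% of the 61, against 3.33% of all genes. The groups overlapped in all 61, where 2.12% of all genes had no overlap. Brip1, a helicase that partners BRCA1, had 9.03, 8.49, 8.42 and 8.89 with vehicle and 8.50, 8.45, 8.18 and 8.25 with eltrombopag, a difference of -0.36 (SE 0.15, unadjusted p 0.0363, adjusted p 0.9998 in limma). Homologous recombination is used by dividing cells, so a list of proliferation genes was read beside it. Of its 18 measured genes 7 were higher and 11 lower, with a median of -0.025. Their mean per array ran from 9.31 to 9.52 with vehicle and from 9.28 to 9.44 with eltrombopag. All 18 had mean values above the arrays' mean median, and 15 had mean values above the mean upper quartile. Cdc6, which licenses replication origins, had a difference of -0.44 (SE 0.19). Ccne2, a cyclin of the G1 to S step, had -0.22 (SE 0.094). These were the 2 proliferation genes with an unadjusted p under 0.05 in limma, which is 11.1%, against 3.33% of all genes. The groups overlapped for Cdc6, and all eltrombopag arrays of Ccne2 lay below the vehicle arrays. Tyms, which makes thymidylate, lay on the other side, with all eltrombopag arrays above the vehicle arrays and a difference of 0.18 (SE 0.093). Ccne2 and Tyms, both without overlap, make up 11.1% of the 18, against 2.12% of all genes. None of the 18 passed in limma. Their part in the values of Rad51ap1 was not tested.

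Averaged over the genes of a role, the arrays of the 2 groups overlapped in each role. The mean of the 8 end joining genes ran from 7.44 to 7.67 with vehicle and from 7.43 to 7.69 with eltrombopag. For the 10 sensing and marking genes it ran from 8.92 to 9.27 and from 9.07 to 9.17, with vehicle array 1 lowest. For the 11 homologous recombination genes it ran from 6.89 to 7.12 and from 6.91 to 7.13, and for the 3 alternative repair genes from 6.86 to 7.19 and from 6.80 to 7.12.

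**Figure D4:**
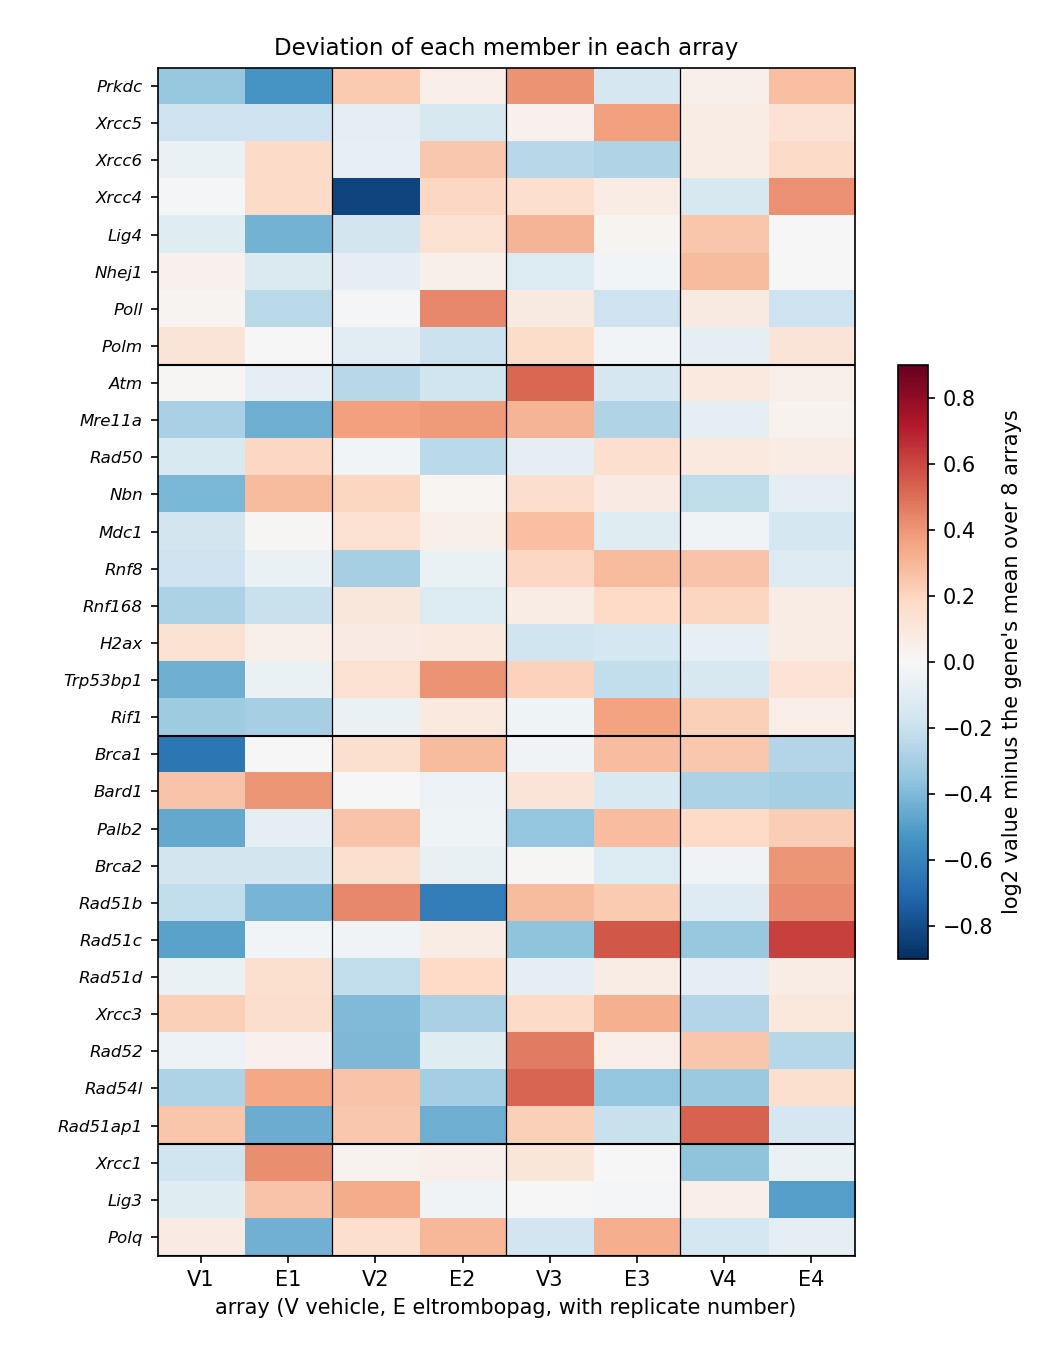
Log2 value of each of the 32 genes (rows) in each array (columns, V vehicle and E eltrombopag, by number) minus that gene's mean over the 8 arrays. Rad51ap1 lies above its mean in all 4 V columns and below it in all 4 E columns, and Prkdc lies below its mean in both columns numbered 1.

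The members were also compared across the replicate numbers, and none passed. The range of the 4 number means, each the mean of a vehicle and an eltrombopag array, had a median of 0.39 over the 32 genes, from 0.061 for Rad51d to 0.74 for Mre11a, and the median over all genes was 0.28. A moderated F test across the 4 numbers, with treatment as a term, called 0 of the 32 members, against 0.21% of all genes. At an unadjusted p under 0.05 there were 4 members, which is 12.5%, against 10.2% of all genes, so the members were near the background. This test treats the arrays of a number as independent.

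These 4 members were Xrcc3, Bard1, Mre11a and Prkdc. Xrcc3 had 9.24, 8.64, 9.20 and 8.77 with vehicle and 9.19, 8.74, 9.35 and 9.13 with eltrombopag, low in number 2 of both groups (unadjusted p 0.0139, adjusted p 0.369 in limma). Bard1 had 6.74, 6.48, 6.60 and 6.19 with vehicle and 6.87, 6.42, 6.34 and 6.18 with eltrombopag, high in number 1 and low in number 4 (unadjusted p 0.0186, adjusted p 0.402 in limma). Mre11a had 7.25, 7.91, 7.85 and 7.45 with vehicle and 7.10, 7.93, 7.28 and 7.57 with eltrombopag, low in number 1 and high in number 2 (unadjusted p 0.0281, adjusted p 0.436 in limma). The number means of Prkdc were 5.82, 6.40, 6.38 and 6.42, with number 1 the low one (unadjusted p 0.0388, adjusted p 0.460 in limma).

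**Figure D5:**
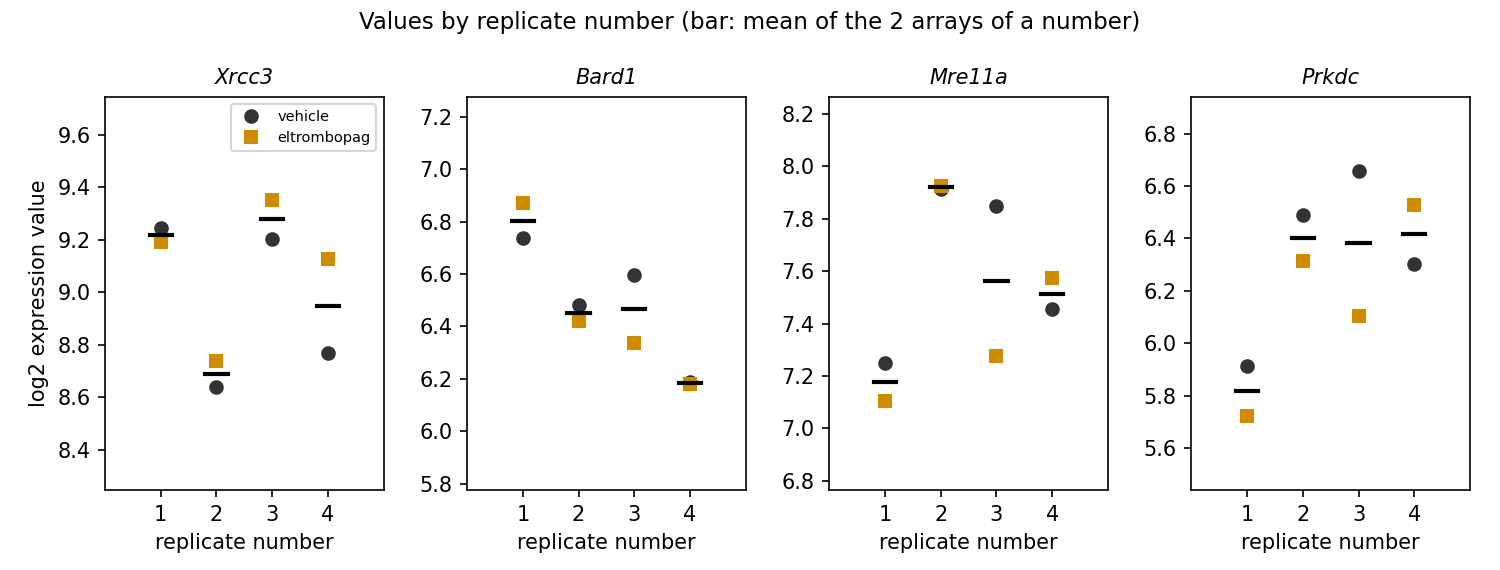
Log2 values (y axis) of Xrcc3, Bard1, Mre11a and Prkdc by replicate number (x axis), with vehicle and eltrombopag arrays as separate symbols and bars at the mean of each number. The 2 arrays of a number lie close together for Xrcc3 in number 1 and for Bard1 in number 4, and apart for Mre11a and Prkdc in number 3.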

How the data were processed

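The authors deposited log2 values, with a row per probe set and a column per array. RMA, oligo and limma are named, with no version, in the submitters' processing notes. RMA sets arrays to a common distribution, which removes differences in total RNA. Per the labels' protocols, about 10 ng of RNA was amplified by a 3' in vitro transcription kit. A genome build was not given in the sources used here.

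The annotation paired 19572 of 22206 probe sets with 1 symbol, giving 19505 genes; the probe set with the highest mean stood for a gene. Treatments were compared with limma 3.58.1 under R 4.3.3 (lmFit and eBayes, two-sided), with group as the only term and Benjamini-Hochberg adjustment over all genes, called at adjusted p under 0.05. The moderated F test across numbers had number and group as terms. Both scripts were tested on simulated data with shifts larger than any seen in a member here, so recovery of smaller shifts was not tested. With arrays there is no read depth, and 4 arrays per group limit the precision.

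All 32 measured members are named. Values in every array are given for those at unadjusted p under 0.05 or without overlap, the extremes of each role, the members at unadjusted p under 0.05 across numbers, the core end joining genes (Prkdc, Xrcc5, Xrcc6, Xrcc4, Lig4) and Rad51b. The values by number and those of Rad51b were added after they were seen. Members and lists were chosen with earlier results of these data known.

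Group and number came from the titles. Deviations from the group means correlated at 0.232, 0.286, 0.181 and 0.133 between arrays of the same number 1 to 4, and from -0.203 to 0.167 between different numbers. All 4 exceed 0.1, but so do 0.167 for vehicle 3 with eltrombopag 4 and 0.166 for vehicle 4 with eltrombopag 3. Both also exceed the 0.133 of number 4, so the correlations do not set numbers 3 and 4 apart. Reading equal numbers as pairs is therefore an assumption, which the labels do not state. The number entered the replicate block, the pair differences, the number means with their F test, and the fits without both arrays numbered 3. The main comparison of treatments did not use it. The alternatives were a replicate block, a filter on dim genes, 2 further scalings, array weights, another prior, averaged probe sets, and leaving out arrays.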

Additional observations from a re-analysis of the deposited data

Results flagged for a closer look

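In 64 groups of 4 values (32 genes in each treatment), 5 held an array far from the other 3, where chance gives about 3.2 (about 1 group in 20). With eltrombopag, array 3 stood apart in 3 genes. Xrcc6 had 9.04 there, against 9.48 to 9.55 in the other arrays (gap over range 0.867). H2ax had 11.04, against 11.25 to 11.28 (0.860). Rnf8 had 8.77, against 8.37 to 8.43 (0.854). Poll had 8.16 in eltrombopag array 2, against 7.48 to 7.54 in the others (0.916), and without that array its log2 difference was -0.25 in place of -0.090. Rad51ap1 had 5.53 in vehicle array 4, against 5.22 to 5.26 (0.885). Without that array the log2 difference of Rad51ap1 was -0.55.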

How the results depend on the processing

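The count of members called between the treatments was 0 under all 15 alternatives that were counted, and the count across the 4 numbers was 0 under all 13. The number of members at an unadjusted p under 0.05 was 4 with the replicate block and 4 with the other prior, and neither changed a call. It was 1 with the filter to genes above the median, which left out 8 of the 32 members, among them Rad51c and Rad51ap1. Leaving out 1 array gave 2 to 4. Apart from the replicate block (4.63%), the share of all genes at that p was not counted in these settings. Rad51ap1 kept its direction under every alternative that held it, from -0.69 to -0.55, Rad51c from 0.50 to 0.72, Rad51d from 0.19 to 0.25 and Xrcc4 from 0.21 to 0.59. For members without overlap a kept direction is entailed by the values. In all, 18 members kept their sign and 14 did not. With array weights Rnf8 was -0.012. Without both arrays numbered 3, Rnf8 was -0.0015, Bard1 0.021, Rad54l 0.18 and Polq -0.095. With 1 array left out, the differences ran from -0.19 to 0.042 for Bard1, -0.044 to 0.26 for Brca1, -0.11 to 0.081 for Brca2, -0.036 to 0.078 for H2ax, -0.25 to 0.0045 for Lig3, -0.11 to 0.028 for Nhej1, -0.10 to 0.0015 for Polm, -0.046 to 0.21 for Polq, -0.29 to 0.00038 for Rad52, -0.21 to 0.079 for Rad54l, -0.14 to 0.021 for Rnf168, -0.073 to 0.11 for Rnf8, -0.0058 to 0.22 for Trp53bp1 and -0.025 to 0.16 for Xrcc5. The cause was not tested. No direction is claimed for these 14 genes. Leaving out 1 array moved the difference by over 1.5 times in 29 of 32 members, all but Rad51ap1, Rad51c and Rad51d. The median difference over all members was -0.0022 with array weights and ran from -0.027 to 0.025 with 1 array left out. By role it then ran from -0.095 to -0.020 for end joining, -0.033 to 0.056 for sensing and marking, -0.029 to 0.081 for homologous recombination and -0.046 to 0.11 for the alternative routes, where it was -0.095 without both arrays numbered 3. Signal over background was not analysed here.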
